A study of Mus musculus with 10 samples.

Results

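Genes of fatty acid oxidation that are known targets of the nuclear receptor PPAR-alpha were followed through 10 sections of mouse liver tissue on spatial transcriptomics slides. They are Cpt1a, Ehhadh, Cyp4a10, Cyp4a14, Acot1, Bdh1, Pdk4 and Fgf21, found by symbol among 31053 genes in the count tables, and all 8 were present. Of these, 6 members, all but Pdk4 and Fgf21, averaged 10 CPM or more over the tissues, CPM being the counts of a gene per 1000000 counts of all genes, as did 8021 genes in all. The members were chosen by name, with earlier results of these data known.

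The samples came from 7 tissues that the labels name by number. There was 1 section each of NEJ634, NEJ638, NEJ654, NEJ677, NEJ687 and NEJ723, and there were 4 adjacent sections of NEJ146. The study works with ABC-Myc mice on C57BL/6J, in which Cre under the albumin promoter removes a stop cassette before a human MYC transgene driven by the CAG promoter in the liver lineage, and its control animals are littermates that lack one or both transgenes. Its text names NEJ634, NEJ687, NEJ723 and NEJ146 as tumours and counts 3 healthy livers, whereas the labels call every section hepatoblastoma and do not say which are normal, so each tissue was kept as its own group. Neither age nor genotype is given for the single sections, and the study's mice were fed freely. The tissue was flash frozen and cut at 10 μm. The NEJ146 sections are labelled total RNA and the others polyA RNA, and they were processed with another program, so that for NEJ146 the tissue and the preparation cannot be told apart.

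Each Visium slide carries an array of barcoded spots that capture RNA from the section above them, and each captured molecule is counted once as a unique molecular identifier (UMI). A spot is a small region that holds several cells, so a level per spot or section does not separate fewer cells of a type from less RNA per cell. Sections had 39280329 to 117077925 UMIs over 1890 to 4878 tissue spots, with medians of 12133.5 to 28926.5 UMIs per spot. Hepatocyte markers summed to 89845 to 122599 CPM in NEJ638, NEJ654 and NEJ677 and to 20974 to 30097 CPM in the other 4 tissues, and enzymes of pericentral hepatocytes summed to 4185 to 6280 CPM against 81.4 to 479 CPM. Oncofetal markers of hepatoblast-like tumour cells showed the opposite, with 7.27 to 20.05 CPM in NEJ638, NEJ654 and NEJ677 and 2143 to 4685 CPM in the other 4. Erythroid markers summed to 78.2 to 204 CPM in NEJ638, NEJ654 and NEJ677 against 694 to 7471 CPM, neutrophil markers to 0.494 to 1.88 CPM against 85.9 to 403 CPM, and proliferation markers to 24.1 to 126 CPM against 391 to 706 CPM. The part of this makeup of the spots in the levels below was not tested. Markers of adipocytes and of muscle, which also express genes of fatty acid metabolism, summed to at most 10.8 and 15.4 CPM in any tissue. Transcripts of the Y chromosome gene Ddx3y were counted in NEJ677, NEJ687 and NEJ723 and in none of the other tissues, so NEJ638, NEJ654 and NEJ677 are not of one sex, nor are the other 4.

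PPAR-alpha is a nuclear receptor that binds fatty acids and, as a pair with RXR, switches on genes that take up, activate and oxidise them. In liver it is most active in fasting, when hepatocytes turn fatty acids into ketone bodies for other organs. Long-chain fatty acids enter mitochondria through the carnitine shuttle, very long chains are first shortened in peroxisomes, and the Cyp4a cytochromes oxidise the far, omega end of the chain to give dicarboxylic acids that peroxisomes then degrade. Along the liver lobule, blood runs from the portal vein to the central vein, and hepatocytes at the opposite ends express different enzymes.

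PPAR-alpha with RXR is known to bind a pair of AGGTCA motifs spaced by one base, so the promoters of 3 members with different spatial behaviour are shown, each as the 250 bases before the start of the gene in RefSeq on GRCm38.p6, 5′ to 3′ on the strand of the gene. For Cpt1a the start in RefSeq lies inside the gene as GENCODE places it below. The promoter of Ehhadh is shown because its level separated the tissues, that of Acot1 because it followed the lobule most steeply while its CPM were lower in the tissues with high Ehhadh, an order lost under another scaling, and that of Cpt1a because it did neither. Capitals mark the 13 bases that come closest to AGGTCANAGGTCA on either strand, or, where several stretches tie, the first of them, with the strand of the gene searched first.

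Ehhadh promoter, chr16:21787835-21788084, minus strand: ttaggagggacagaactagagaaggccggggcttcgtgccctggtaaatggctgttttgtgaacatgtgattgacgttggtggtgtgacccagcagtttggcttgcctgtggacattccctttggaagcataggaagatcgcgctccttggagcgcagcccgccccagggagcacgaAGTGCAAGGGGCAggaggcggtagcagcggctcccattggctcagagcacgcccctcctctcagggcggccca

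Acot1 promoter, chr12:84009252-84009501, plus strand: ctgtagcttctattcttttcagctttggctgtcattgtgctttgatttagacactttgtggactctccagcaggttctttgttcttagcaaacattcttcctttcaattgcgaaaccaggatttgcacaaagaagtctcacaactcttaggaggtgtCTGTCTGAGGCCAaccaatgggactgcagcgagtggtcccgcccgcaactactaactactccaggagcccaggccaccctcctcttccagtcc

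Cpt1a promoter, chr19:3323051-3323300, plus strand: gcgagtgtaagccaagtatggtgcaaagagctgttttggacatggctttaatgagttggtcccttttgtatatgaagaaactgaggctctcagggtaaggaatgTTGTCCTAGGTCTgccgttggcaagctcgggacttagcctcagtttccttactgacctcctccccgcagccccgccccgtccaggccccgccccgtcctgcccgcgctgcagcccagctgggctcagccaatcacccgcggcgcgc

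None of these windows held the whole motif, which occurs in 11 of 32851 promoters of the same length, 0.0335%. In each the closest stretch matched 8 of the 12 fixed letters, and 74.5% of all promoters hold a match as close or closer. The Cpt1a window held the single motif AGGTCA or its complement 1 time, which 14.0% of all promoters do, and the Ehhadh and Acot1 windows did not hold it. These matches describe letters and not binding sites. Of the other members, Pdk4, Fgf21 and Bdh1 had promoter entries, and one of the pair of Bdh1 windows held the closest match among the members, with 9 letters, a match as close as or closer than which 21.3% of promoters hold. Cyp4a10 and Cyp4a14 had no entry in the set of promoters used.

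Between tissues, the members fell into 3 patterns. The microsomal and peroxisomal enzymes Cyp4a10, Cyp4a14 and Ehhadh and the ketone body enzyme Bdh1 were higher in each of NEJ638, NEJ654 and NEJ677 than in any of the other 4 tissues, Acot1 was lower in them, and Cpt1a overlapped. So 4 of the 6 members with at least 10 CPM had all 3 of these tissues above, an order that 18.1% of the 8021 genes showed, and 1 had them below, as 44.1% of all genes did. The difference between the tissues exceeded 10 times the spread among adjacent sections for all 6 members, and for 62.9% of all genes. No test was made between these sets of tissues, because the labels do not place the tissues in groups, and each of the 6 tissues with 1 section stands on a single sample. Intervals given below are exact 95% Poisson intervals that cover counting error only, and the NEJ146 values are means with the SD over 4 adjacent sections of 1 tissue.

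**Figure D1:**
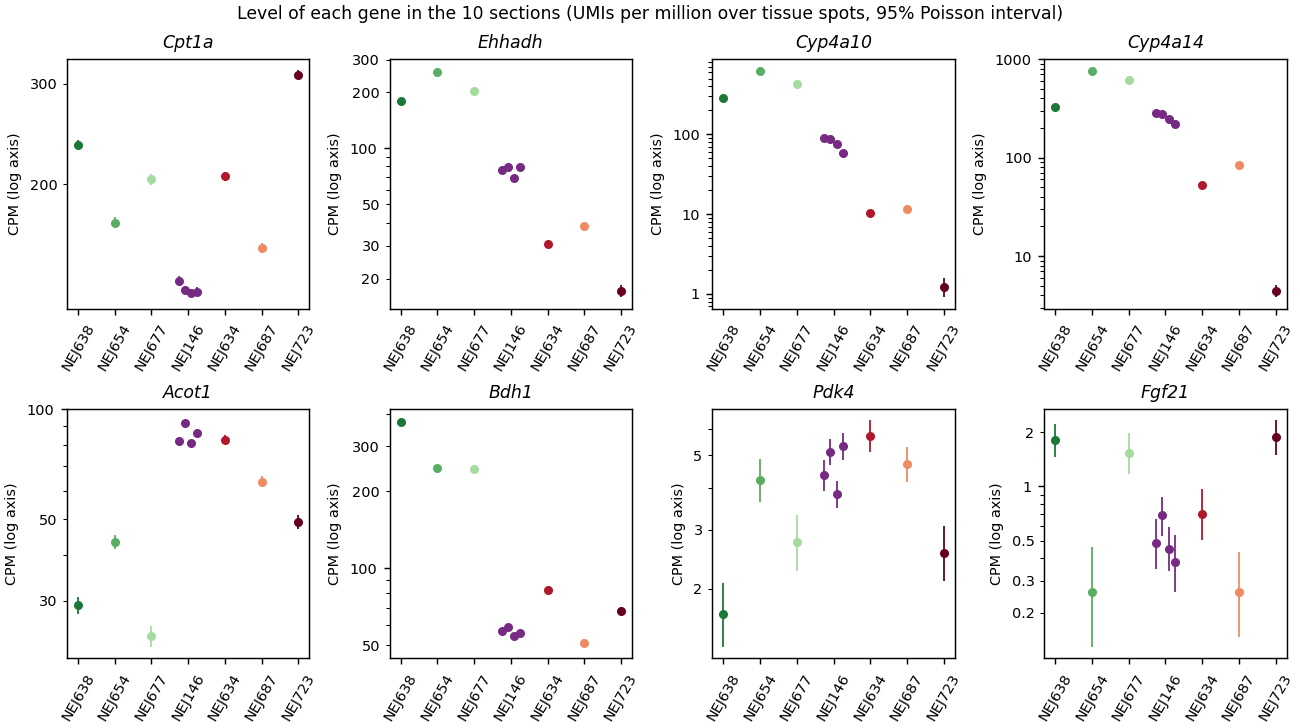
Level of each of the 8 members in the 7 tissues, as CPM over tissue spots on a log axis, with 1 point per section and bars for the exact 95% Poisson interval. Ehhadh, Cyp4a10, Cyp4a14 and Bdh1 were higher in NEJ638, NEJ654 and NEJ677 than in the other 4 tissues, Acot1 was lower in them as CPM but overlapped under TMM scaling, and the 4 NEJ146 sections span 58.6 to 91.0 CPM for Cyp4a10.

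Cpt1a (ENSMUSG00000024900, chr19:3322334-3385733 on GRCm38, plus strand) encodes the outer mitochondrial membrane carnitine palmitoyltransferase, the rate-controlling gate of long-chain fatty acids into mitochondria. Its level was 235 CPM (231 to 239) in NEJ638, 171 (168 to 175) in NEJ654 and 204 (200 to 209) in NEJ677. It was 206 CPM (203 to 210) in NEJ634, 155 (152 to 158) in NEJ687 and 312 (306 to 317) in NEJ723, and 136, 131, 129 and 130 CPM in the 4 NEJ146 sections, a mean of 131 ± 3.05 (SD, n = 4). The highest and the lowest tissue were both among the 4 with the oncofetal markers, and the whole range of 2.37-fold in plain CPM was the narrowest of all 8 members. On CPM + 1, the scale used for log2, its range was 2.36-fold and that of the sparse Fgf21 was narrower, at 2.29-fold. Ordered by level, NEJ634 and NEJ677 did not differ by more than 2 SD of the section spread, nor did NEJ654 and NEJ687. Among the other shuttle genes, Cpt2, the inner membrane transferase, had 179, 161 and 191 CPM in NEJ638, NEJ654 and NEJ677 against 78.5 to 142 CPM elsewhere, and the carnitine-acylcarnitine carrier Slc25a20 had 69.8, 63.4 and 66.3 CPM against 23.2 to 41.7 CPM. The muscle form Cpt1b reached at most 0.104 CPM. Cpt2 and Slc25a20 thus ordered the tissues, while Cpt1a itself did not.

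Ehhadh (ENSMUSG00000022853, chr16:21761287-21787807, minus strand) encodes the peroxisomal bifunctional enzyme, which carries out the hydration and dehydrogenation steps of peroxisomal beta-oxidation. Its level was 179 CPM (175 to 183) in NEJ638, 257 (253 to 262) in NEJ654 and 203 (199 to 208) in NEJ677. The level was lowest in NEJ723, at 17.1 CPM (15.9 to 18.4), followed by NEJ634 with 30.7 (29.3 to 32.2) and NEJ687 with 38.4 (36.8 to 40.0), and the NEJ146 sections had 76.4, 79.0, 69.4 and 79.3 CPM, a mean of 76.0 ± 4.62 (SD, n = 4). On the scale used for log2, the lowest of NEJ638, NEJ654 and NEJ677 was 2.34-fold above NEJ146, the highest of the rest. The extremes lay 15.1-fold apart in plain CPM. All neighbours in the order of the 7 levels differed by more than 2 SD of the section spread.

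Cyp4a10 (ENSMUSG00000066072, chr4:115518264-115533649, plus strand) and Cyp4a14 (ENSMUSG00000028715, chr4:115486200-115496142, minus strand) lie close to each other on chromosome 4 and encode fatty acid omega-hydroxylases that are among the most inducible PPAR-alpha targets of rodent liver. Cyp4a10 had 284 CPM (280 to 289) in NEJ638, 628 (620 to 635) in NEJ654 and 427 (421 to 434) in NEJ677. It had 10.5 CPM (9.64 to 11.3) in NEJ634, 11.7 (10.9 to 12.6) in NEJ687 and only 53 UMIs, 1.21 CPM (0.910 to 1.59), in NEJ723, while the NEJ146 sections had 91.0, 88.9, 76.7 and 58.6 CPM, a mean of 78.8 ± 14.9 (SD, n = 4). Its range of 517-fold in plain CPM, and of 284-fold on CPM + 1, was the widest of the 8 members. NEJ146 stood between the tissues with 284 CPM or more and those with 11.7 CPM or less. The gap between NEJ638 and NEJ146 was 3.57-fold on CPM + 1. Cyp4a14 had 327 CPM (322 to 332), 761 (753 to 770) and 622 (614 to 630) in NEJ638, NEJ654 and NEJ677. It had 52.3 CPM (50.5 to 54.2) in NEJ634, 85.0 (82.7 to 87.4) in NEJ687, 4.42 (3.82 to 5.09) in NEJ723, and 284, 275, 249 and 222 CPM in the NEJ146 sections, a mean of 258 ± 28.1 (SD, n = 4). The tissues at the top and bottom were the same for both genes, with NEJ654 highest and NEJ723 lowest, but the gap between NEJ638 and NEJ146 was only 1.27-fold for Cyp4a14. For both genes NEJ654 and NEJ677 did not differ by more than 2 SD of the section spread, and for Cyp4a10 neither did NEJ687 and NEJ634. Without NEJ146, the gap on CPM + 1 between the 3 high tissues and the rest was 22.4-fold for Cyp4a10, 3.81-fold for Cyp4a14 and 4.57-fold for Ehhadh. This choice of tissues was made after seeing the data.

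The relatives of these genes did not all share that picture. Cyp4a31 had 41.2, 24.99 and 25.9 CPM in NEJ638, NEJ654 and NEJ677 and 3.41 to 5.55 CPM in the other 4. Cyp4a12a, known in mice as an omega-hydroxylase of males, had 94.1 CPM in NEJ677, one of the tissues with Ddx3y, and at most 2.09 CPM in any other tissue, NEJ687 and NEJ723 included, and Cyp4a12b had 15.1 CPM in NEJ677 and at most 0.819 CPM elsewhere. Cyp4a32 stayed at or below 0.941 CPM. Only the final stretch of each coding transcript was compared. Of the 100-base windows there in Cyp4a10, 14.4% also occur in Cyp4a31 or Cyp4a32, so reads from them may have been assigned to either gene or dropped. None of the windows of Cyp4a14 in that stretch are shared.

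Acot1 (ENSMUSG00000072949, chr12:84009490-84018371, plus strand) encodes a cytosolic thioesterase that splits long-chain acyl-CoA into free fatty acid and coenzyme A. It was the only member with lower CPM in NEJ638, NEJ654 and NEJ677 than in every other tissue, at 29.1 (27.7 to 30.6), 43.4 (41.5 to 45.5) and 23.9 CPM (22.4 to 25.5). The level was 82.6 CPM (80.2 to 85.0) in NEJ634, 63.5 (61.4 to 65.6) in NEJ687, 49.2 (47.1 to 51.3) in NEJ723 and 81.9, 91.6, 81.0 and 86.1 CPM in the NEJ146 sections, a mean of 85.2 ± 4.85 (SD, n = 4). The gap between NEJ723 and NEJ654 was 1.13-fold, and with library sizes scaled by the trimmed mean of M-values (TMM) in place of plain totals these tissues overlapped, although the mean log2 difference kept its sign. NEJ146 and NEJ634 did not differ by more than 2 SD of the section spread. The mitochondrial relative Acot2 had 8.81, 8.02 and 5.86 CPM in NEJ638, NEJ654 and NEJ677 against 10.2 to 17.0 CPM, and its order was lost under TMM scaling as well. Of the 100-base windows in the final stretch of Acot1 transcripts, 8.21% also occur in Acot2. Acot12, a cytosolic acetyl-CoA hydrolase of liver, had 84.7, 96.0 and 94.96 CPM against 23.1 to 36.8 CPM, while the peroxisomal forms Acot3 and Acot4 and the mitochondrial Acot13 overlapped between the tissues. Acot3 was 48.3, 19.8 and 2.57 CPM in NEJ638, NEJ654 and NEJ677 and 6.16 to 22.8 CPM elsewhere. Acot5 was at most 0.225 CPM.

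Bdh1 (ENSMUSG00000046598, chr16:31422280-31458901, plus strand) encodes the mitochondrial dehydrogenase that interconverts acetoacetate and beta-hydroxybutyrate. It had 375 CPM (370 to 380), 247 (243 to 252) and 245 (240 to 250) in NEJ638, NEJ654 and NEJ677. The other tissues had 82.0 CPM (79.7 to 84.4) in NEJ634, 51.0 (49.2 to 52.9) in NEJ687, 68.1 (65.7 to 70.6) in NEJ723 and 56.9, 58.6, 54.4 and 55.5 CPM in the NEJ146 sections, a mean of 56.4 ± 1.83 (SD, n = 4). Unlike the Cyp4a genes and Ehhadh, Bdh1 was not highest in NEJ146 among the tissues of the low side. The gap was 2.96-fold on the scale used for log2, and the range was 7.35-fold in plain CPM. The pairs NEJ654 and NEJ677, and NEJ146 and NEJ687, did not differ by more than 2 SD of the section spread. Oxct1, the enzyme by which other organs burn ketone bodies and which mature hepatocytes largely lack, went the other way from Bdh1, with 7.56, 3.79 and 2.65 CPM in NEJ638, NEJ654 and NEJ677 against 11.8 CPM in NEJ146, 50.4 in NEJ634, 15.5 in NEJ687 and 36.3 in NEJ723. The cytosolic Bdh2 overlapped, from 10.5 to 18.8 CPM in NEJ638, NEJ654 and NEJ677 and from 5.41 to 11.8 CPM in the rest, though not under TMM scaling, where it was higher in NEJ638, NEJ654 and NEJ677.

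Pdk4 (ENSMUSG00000019577, chr6:5483351-5496309, minus strand), the kinase that shuts pyruvate dehydrogenase off in fasting, and Fgf21 (ENSMUSG00000030827, chr7:45613886-45615490, minus strand), a liver hormone of fasting and stress, were barely counted. Pdk4 had 1.68 CPM (1.34 to 2.08) in NEJ638, 4.21 (3.62 to 4.88) in NEJ654, 2.75 (2.26 to 3.32) in NEJ677, 5.71 (5.11 to 6.37) in NEJ634, 4.70 (4.16 to 5.30) in NEJ687, 2.57 (2.11 to 3.09) in NEJ723 and 4.66 ± 0.688 (SD, n = 4) in NEJ146. Fgf21 had 92, 11 and 60 UMIs in NEJ638, NEJ654 and NEJ677, that is 1.80 CPM (1.45 to 2.20), 0.259 (0.129 to 0.463) and 1.53 (1.17 to 1.97). Its other levels were 0.708 CPM (0.505 to 0.963) in NEJ634, 0.261 (0.146 to 0.431) in NEJ687, 1.88 (1.49 to 2.33) in NEJ723 and 0.504 ± 0.132 CPM (SD, n = 4) in NEJ146. Neither gene ordered the tissues, and 4 of the 6 neighbouring pairs in each order did not differ by more than 2 SD. Pdk2, a form of the kinase that liver expresses, had 70.6, 73.2 and 61.2 CPM in NEJ638, NEJ654 and NEJ677 against 18.4 to 30.7 CPM, and Pdk1 had 33.9, 33.6 and 39.3 CPM against 56.3 to 74.8 CPM, an order lost under TMM scaling. Pdk3 stayed at or below 3.69 CPM. Klb, the co-receptor of Fgf21, was lower in NEJ638, NEJ654 and NEJ677, at 16.6, 13.1 and 10.8 CPM, than in the other 4 tissues at 37.7 to 55.0 CPM.

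On the scale of log2(CPM + 1), the mean of NEJ638, NEJ654 and NEJ677 minus the mean of the other 4 tissues was 5.07 for Cyp4a10, 3.42 for Cyp4a14, 2.54 for Ehhadh, 2.14 for Bdh1, 0.25 for Fgf21, 0.09 for Cpt1a, −0.49 for Pdk4 and −1.11 for Acot1. The median gene stood at −0.39 on this scale and at 0.03 under TMM scaling. Relative to the median gene the difference was 5.46 for Cyp4a10, 3.81 for Cyp4a14, 2.94 for Ehhadh, 2.54 for Bdh1, 0.48 for Cpt1a and −0.72 for Acot1, and relative to the median gene under TMM it was 5.41, 3.79, 2.92, 2.53, 0.47 and −0.73. Under TMM scaling 32.4% of all genes had NEJ638, NEJ654 and NEJ677 above the rest and 30.2% below, in place of 18.1% and 44.1%, and of the members 4 stood above and none below. The 4 higher members therefore stood above under either scaling, whereas the order of Acot1 depended on it.

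Across the 7 tissues, Ehhadh and Cyp4a10 followed each other most closely among the members, with a Pearson correlation of log2(CPM + 1) of 0.995, and Cyp4a10 and Cyp4a14 had 0.961. Acot1 ran against Bdh1, at −0.835. The genes outside the members whose levels were most like that of Ehhadh were Dpyd, the first enzyme of pyrimidine breakdown, with a correlation of 0.999, Hibadh of valine breakdown with 0.998 and the cysteine dioxygenase Cdo1 with 0.996. Those most like Cyp4a10 were Hibadh at 0.997, Cdo1 at 0.996 and Cyp2j5 at 0.995, and those most like Cyp4a14 were Cyp2c29 at 0.993 and Cyp3a11 and Ces1e at 0.990. For Bdh1 they were Sec24a at 0.997 and Slc22a7 and Sc5d at 0.993, for Cpt1a Dennd1b at 0.977, Grk3 at 0.974 and Sharpin at 0.970, and for Acot1 Adam11 at 0.981, Cst3 at 0.966 and Arhgap18 at 0.961. Pdk4 was most like Lst1 at 0.941, Aif1 at 0.936 and Gatd1 at 0.933, and Fgf21 most like Rnf6 at 0.922, Nectin2 at 0.860 and Mettl26 at 0.859. All of these describe 7 points that share libraries and cell makeup, picked as the highest among 8021 genes.

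The wider pathway was described with lists of genes by role. Of 93 listed genes with at least 10 CPM, 49 were higher in NEJ638, NEJ654 and NEJ677 than in the other 4 tissues and 11 were lower, and without the members 45 of 87 were higher and 10 lower, beside 18.1% and 44.1% of all genes. In peroxisomal beta-oxidation 12 of 14 genes were higher, none was lower, and the median log2 difference was 1.73, beside −0.39 for all genes. The thiolase Acaa1b had 1204, 1414 and 1441 CPM in NEJ638, NEJ654 and NEJ677 against 67.5 to 483 CPM, and Crot, which hands shortened chains on to the mitochondria, had 287, 727 and 758 CPM against 37.7 to 159 CPM. In mitochondrial beta-oxidation 10 of 15 genes were higher and 1, Hadhb, was lower, though not under TMM scaling, with a median of 0.49. Its genes with the widest range were the thiolase Acaa2, with 1034, 956 and 986 CPM against 416 to 542 CPM, and the isomerase Eci2, with 213, 188 and 219 CPM against 75.2 to 98.5 CPM. In the omega-oxidation list 5 of 6 genes were higher, with a median of 2.56, and 2 of the 4 carnitine shuttle genes were, with a median of 0.41.

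In fatty acid uptake and activation 6 of 11 genes were higher and 1 lower, with a median of 1.02. Beside this list and those that follow, 18.1% of all genes were higher and 44.1% lower, with a median of −0.39. Under TMM scaling these shares were 32.4% and 30.2%. Fabp1, the abundant fatty acid binding protein of hepatocytes, had 20485, 10166 and 23337 CPM in NEJ638, NEJ654 and NEJ677 against 1670 to 2375 CPM, and the bile acid and fatty acid CoA ligase Slc27a5 had 703, 998 and 762.2 CPM against 16.7 to 231 CPM. Of 7 thioesterases 1 was higher and 2 lower, with a median of −0.03, and under TMM scaling 2 were higher and none lower. Of 6 ketone body genes 3 were higher, 5 under TMM scaling, and 1 lower, with a median of 0.80, and of 5 genes of fuel switch and hormone response 1 was higher and 2 were lower, with a median of 0.06. Of 7 other PPAR-alpha targets 3 were higher and 1 was lower, with a median of 0.06. Among them the pantetheinase Vnn1 had 42.6, 44.2 and 49.0 CPM against 3.01 to 9.04 CPM, and the lipase inhibitor G0s2 overlapped, at 134, 141 and 27.3 CPM against 71.4 to 203 CPM. Of 3 transcriptional regulators, Rxra, the partner of PPAR-alpha, was higher, at 207, 199 and 173 CPM against 79.1 to 132 CPM, the co-repressor Ncor1 was lower, and Creb3l3 overlapped, at 391, 285 and 402 CPM against 234 to 363 CPM. Under TMM scaling Ncor1 overlapped and Creb3l3 was higher. The receptor gene Ppara was under the 10 CPM limit and is named after its values were seen, with 8.32, 4.47 and 5.96 CPM in NEJ638, NEJ654 and NEJ677 and 3.44, 2.94, 2.16 and 1.79 CPM in NEJ146, NEJ634, NEJ687 and NEJ723.

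**Figure D2:**
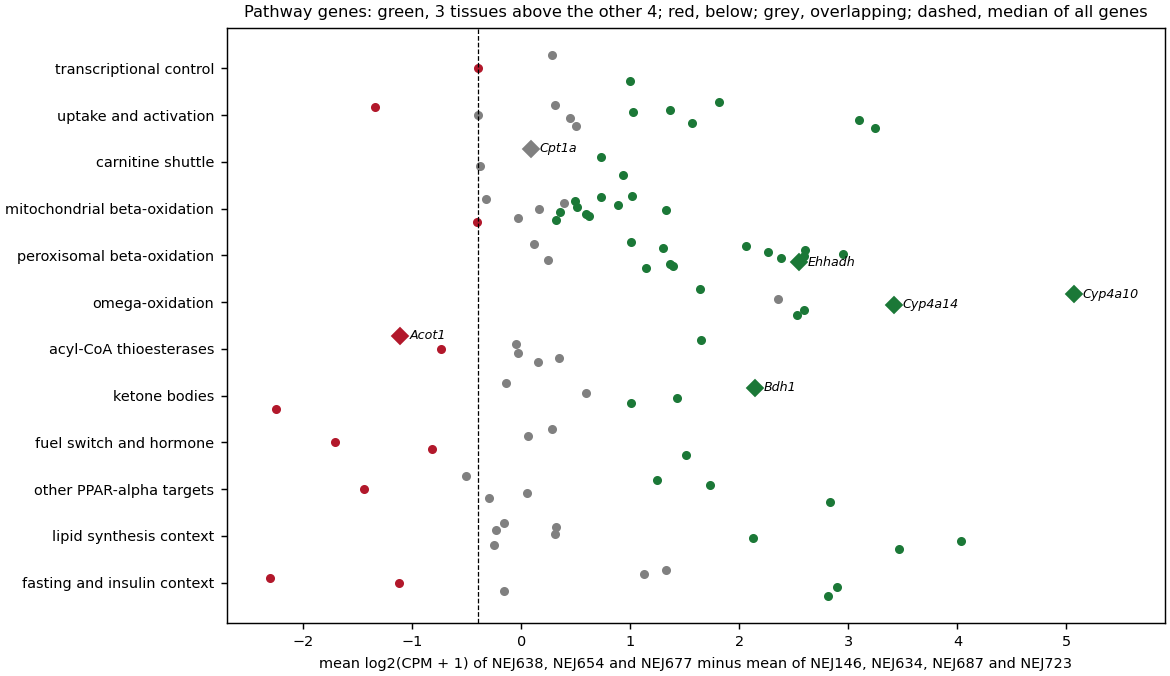
Difference in log2(CPM + 1) between the mean of NEJ638, NEJ654 and NEJ677 and the mean of the other 4 tissues, with 1 point per gene in each pathway list. Green points have all 3 tissues above the other 4, red points below, grey points overlap, diamonds are members and the dashed line is the median of all genes at −0.39. Peroxisomal and omega-oxidation genes lie mostly to the right, with Acot1 among the red points as CPM though not under TMM scaling.

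Genes of lipid synthesis and of fasting, which feeding is known to move, were set beside them, and the part of feeding state in the levels was not tested. Of 8 lipid synthesis genes 3 were higher in NEJ638, NEJ654 and NEJ677, 5 under TMM scaling, and none was lower. The desaturase Scd1 had 619, 1549 and 2293 CPM against 10.6 to 208 CPM, and Thrsp, a lipogenic gene that feeding induces, had 1215, 86.3 and 180 CPM against 3.92 to 62.5 CPM. Of 7 fasting and insulin genes 2 were higher, 4 under TMM scaling, and 2 were lower. Beside both lists, 18.1% of all genes were higher and 44.1% lower, and 32.4% and 30.2% under TMM scaling. The gluconeogenic enzyme Pck1 had 1437, 555 and 818 CPM against 10.95 to 332 CPM, and the tyrosine aminotransferase Tat had 801, 392 and 251 CPM against 7.38 to 164 CPM. The genes of this list below the other tissues were Igfbp1, at 197, 51.7 and 204 CPM against 439 to 1110 CPM, and Irs2, at 15.1, 9.60 and 10.9 CPM against 20.1 to 30.3 CPM, both named after their values were seen.

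The place of the members along the liver lobule was measured in NEJ638, NEJ654 and NEJ677, where each spot was scored by the log2 ratio of pericentral to periportal enzymes, averaged with its adjacent spots, and none of the members enters the score. The spots of a section were then put into 3 groups of equal size by this score, and the outer groups are called its periportal and its pericentral end. The central vein gene Glul, which belongs to the score and so had to differ between its ends, stood at 140, 237 and 127 CPM at the periportal end and at 603, 1035 and 698 CPM at the pericentral end. All members but Cpt1a and the sparse genes were higher on the pericentral side by 1.39-fold or more in all 3 tissues. Acot1 was the steepest, with 11.8 CPM at the periportal and 51.7 CPM at the pericentral end of NEJ638, 20.2 and 73.1 CPM in NEJ654, and 10.5 and 43.1 CPM in NEJ677. The ratios were 4.39 (3.76 to 5.16), 3.63 (3.18 to 4.14) and 4.08 (3.39 to 4.95), with exact conditional binomial 95% intervals. The gene with the lower CPM in these 3 tissues thus varied the most within them.

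Cyp4a10 went from 168 to 404 CPM in NEJ638, from 400 to 880 CPM in NEJ654 and from 298 to 564 CPM in NEJ677, ratios of 2.41, 2.20 and 1.89. Cyp4a14 went from 200 to 455 CPM, from 507 to 1027 CPM and from 444 to 794 CPM, ratios of 2.27, 2.02 and 1.79. The ratio of Cyp4a10 was the higher of the pair in each tissue. Their intervals overlapped in NEJ638 and NEJ677 but not in NEJ654, at 2.13 to 2.27 for Cyp4a10 and 1.97 to 2.08 for Cyp4a14. Ehhadh had ratios of 1.57, 1.72 and 1.57, from 139 to 218 CPM in NEJ638, from 192 to 331 CPM in NEJ654 and from 158 to 248 CPM in NEJ677, and the lowest bound of its 95% intervals, 1.48 in NEJ677, lay just under 1.5. Bdh1 had 1.69, 1.59 and 1.39, and its pericentral end held 463, 304 and 283 CPM. Cpt1a was nearly level, with ratios of 1.07 (1.02 to 1.11), 1.19 (1.12 to 1.25) and 1.04 (0.987 to 1.097), and its periportal end held 223, 155 and 202 CPM. Pdk4 had ratios of 1.43, 2.72 and 2.05 and Fgf21 of 2.41, 1.23 and 0.885, all on few counts. A ratio of at least 1.5 in the same direction in all 3 tissues was reached by 4 of the 6 members, Ehhadh, Cyp4a10, Cyp4a14 and Acot1, and by 1.02% of 8011 genes, with 1.21% of genes as far the other way. With at least 2-fold asked for, Acot1 alone of the members remained. Cyp4a10 and Cyp4a14 fell short of 2-fold in NEJ677 only, at 1.89 and 1.79. The share of all genes at 2-fold is not reported here. Pericentral spots also held more UMIs, with medians of 14706 against 11592 UMIs in NEJ638, 18822 against 17141 in NEJ654 and 15832 against 13837 in NEJ677. Bile duct markers were lower there, at 37.2 against 318 CPM, 25.5 against 159 CPM and 21.6 against 181 CPM, as were macrophage markers, at 163 against 196 CPM, 270 against 369 CPM and 193 against 318 CPM. The part of depth and of these cells in the ratios was not tested.

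**Figure D3:**
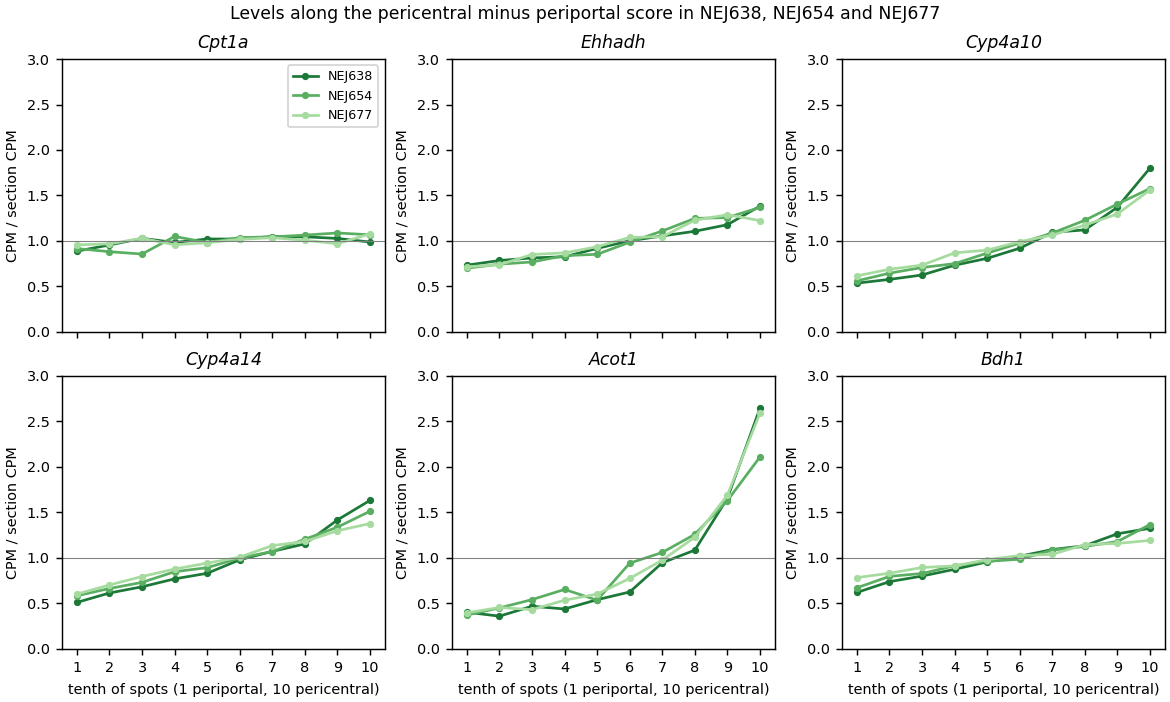
Level of the 6 members with at least 10 CPM along the lobule score in NEJ638, NEJ654 and NEJ677, as CPM in each of 10 equal groups of spots divided by the CPM of the section, from group 1 (most periportal) to group 10 (most pericentral). Acot1 climbs from 0.401 to 2.64 times its section level in NEJ638, from 0.370 to 2.11 in NEJ654 and from 0.395 to 2.59 in NEJ677, while Cpt1a stays close to 1.

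Of the listed genes other than members, 6 of 86 were at least 1.5-fold higher pericentrally in all 3 tissues and 2 were lower. The thioesterases Acot2, with log2 ratios of 1.15, 0.99 and 0.91 in NEJ638, NEJ654 and NEJ677, and Acot3, with 1.38, 0.83 and 0.65, went with Acot1. Aldh3a2, the fatty aldehyde dehydrogenase that follows the Cyp4a enzymes in omega-oxidation, had 1.296, 1.36 and 2.11. Acaa1b had 0.89, 0.90 and 1.005, Eci2 0.77, 0.86 and 0.71, and the insulin-repressed Igfbp1 0.62, 0.73 and 0.79. Bdh2 lay on the periportal side, with −1.79, −1.72 and −1.74, opposite to Bdh1, as did the citrate lyase of lipid synthesis, Acly, with −0.85, −0.98 and −0.79. By list, and with the members counted, 3 of 6 omega-oxidation genes and 3 of 7 thioesterases were pericentral by this measure, with median log2 ratios of 1.05 and 0.67, as were 2 of 14 peroxisomal and 1 of 15 mitochondrial beta-oxidation genes, beside 1.02% of all genes and a median of 0.05. The members among these were Cyp4a10, Cyp4a14, Acot1 and Ehhadh.

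Over all 7 tissues, the same score was tested by flipping the signs of the 7 tissue values in every way, an exact permutation test, two-sided, that with 7 tissues cannot go below p = 0.0156. With Benjamini-Hochberg adjustment over 8011 genes no gene passed 0.05, the lowest adjusted p being 0.2745, while 1142 genes had an unadjusted p under 0.05. Cyp4a10, Cyp4a14 and Acot1 had ratios above 1 in 7 of 7 tissues, with mean log2 ratios of 1.19 ± 1.09, 1.07 ± 0.49 and 1.09 ± 0.88 (SD over 7 tissues) and an exact permutation p of 0.0156 each, adjusted 0.2745, which 456 genes, 5.69% of those tested, shared. In NEJ723 none of these ratios differed from 1 beyond counting error, at 1.48 (0.702 to 3.12) for Cyp4a10, 1.37 (0.931 to 2.004) for Cyp4a14 and 1.04 (0.927 to 1.16) for Acot1. Bdh1 had a mean of 0.43 and was higher in 6 of 7 tissues (exact permutation p = 0.0312, adjusted 0.297), Ehhadh 0.48 in 6 of 7 (exact permutation p = 0.0469, adjusted 0.329) and Cpt1a −0.03 in 3 of 7 (exact permutation p = 0.625, adjusted 0.856). In NEJ146 the periportal enzymes of the score did not move together. Toward its upper end in section 1, Cyp2f2 went from 23.8 to 151 CPM and Pck1 from 170 to 515 CPM, along with the pericentral Cyp2e1 from 31.6 to 566 CPM, while Hsd17b13 went from 711 to 551 CPM, Hal from 95.6 to 89.9 CPM and Ass1 from 1241 to 1192 CPM. There the ratios were 9.10 to 17.4 for Cyp4a10 and 3.66 to 4.52 for Cyp4a14 over the 4 sections. Other markers also moved toward the upper end in section 1. Erythroid markers went from 8419 to 3363 CPM, bile duct markers from 30.4 to 216 CPM and stromal markers from 277 to 754 CPM. General hepatocyte markers went from 14848 to 31924 CPM. The part of these cells in the ratios was not tested.

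A second score therefore summed the pericentral and periportal enzymes of each spot, again compared by the outer of 3 equal groups. In the 4 tissues other than NEJ638, NEJ654 and NEJ677 it separates spots rich in these enzymes from spots poor in them. In NEJ638, NEJ654 and NEJ677 it followed the pericentral enzymes, which in NEJ638 went from 2802 to 6603 CPM between its ends. From the lower over the middle to the upper group, the periportal ones had 4531, 4716 and 3253 CPM in NEJ638, beside 5964, 4279 and 2604 CPM on the lobule score. In NEJ654 they had 4968, 3956 and 2297 CPM, beside 5303, 3643 and 2134 CPM. The summed score thus repeats the lobule order in part, more closely in NEJ654 than in NEJ638. In NEJ146 Cyp4a10 went from 14.4, 17.3, 13.3 and 10.4 CPM at the lower end to 202, 198, 186 and 142 CPM at the upper end in sections 1 to 4, ratios of 14.0, 11.4, 14.0 and 13.7. In NEJ634 it went from 2.93 to 22.1 CPM, a ratio of 7.54, and in NEJ687 from 4.51 to 21.2 CPM, a ratio of 4.71. In NEJ723 it hardly moved, from 1.29 to 1.4996 CPM, a ratio of 1.16 with an interval from 0.578 to 2.43. The score itself had unequal spans in these tissues. Between its ends the pericentral enzymes went from 175 to 976 CPM in NEJ146 section 1 and from 131 to 389 CPM in NEJ634. They went from 184 to 254 CPM in NEJ687 and only from 70.5 to 88.9 CPM in NEJ723. The periportal ones went from 1755 to 2945, 947 to 1916, 1998 to 2665 and 1231 to 1591 CPM in that order. The part of these spans in the Cyp4a10 ratios was not tested. At the lower end of this score Cyp4a10 had 204 CPM in NEJ638, 420 CPM in NEJ654 and 340 CPM in NEJ677. The upper end of NEJ146 thus came near the lower end of NEJ638 but not that of NEJ654 or NEJ677. Neither end of NEJ634, NEJ687 or NEJ723 came near any of them. NEJ146 also differs from the other tissues in its RNA preparation.

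Cyp4a14 followed the same score, from 110, 106, 104 and 114 CPM to 517, 511, 472 and 390 CPM in the NEJ146 sections, ratios of 4.72, 4.84, 4.54 and 3.43. The ends held 12.1 and 112 CPM in NEJ634, a ratio of 9.27, then 63.8 and 108 CPM in NEJ687, 1.69, and 3.31 and 5.50 CPM in NEJ723, 1.66. The ratio of Cyp4a14 was thus lower than that of Cyp4a10 in NEJ146 and NEJ687, with intervals that did not overlap, whereas in NEJ634 the intervals overlapped, 8.02 to 10.8 for Cyp4a14 and 5.601 to 10.4 for Cyp4a10. Ehhadh had ratios of 1.84 to 2.95 over the NEJ146 sections, 3.04 in NEJ634, 1.40 in NEJ687 and 1.26 in NEJ723, and Bdh1 of 1.35 to 1.4997, 1.38, 1.01 and 1.21. Acot1 was higher at the upper end in NEJ146, by 1.42- to 1.81-fold, and had ratios of 0.970, 0.959 and 0.806 in NEJ634, NEJ687 and NEJ723. Cpt1a had 0.852 to 0.952 in NEJ146 and 1.07, 1.11 and 1.09 in NEJ634, NEJ687 and NEJ723. Pdk4, at few counts, went from 3.11 to 9.60 CPM in NEJ634. A ratio of at least 1.5 in all 4 tissues was reached by 1 of the 6 members, Cyp4a14, and by 0.0874% of 8011 genes, with 0 genes as far the other way. For Cyp4a14 this rests on NEJ723, where 36 and 88 UMIs gave an interval of 1.11 to 2.52 that spans 1.5.

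**Figure D4:**
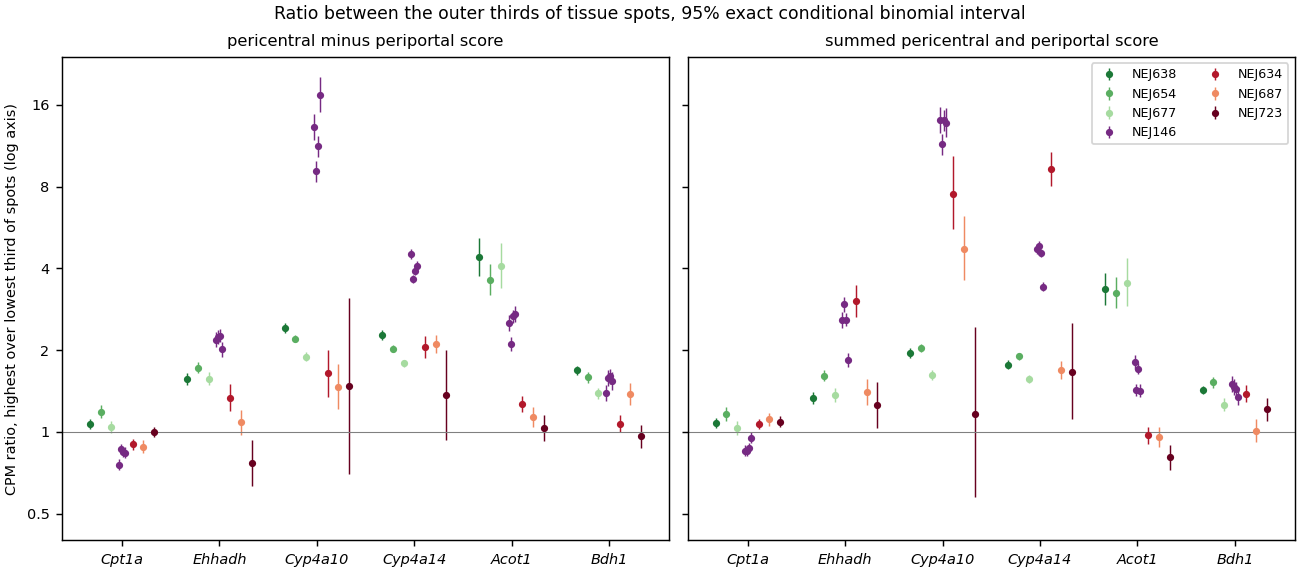
Ratio of CPM at the upper end to CPM at the lower end, the outer of 3 equal groups of spots, for the 6 members with at least 10 CPM, on a log axis, by the lobule score on one panel and by the summed enzyme score on the other, with exact conditional binomial 95% intervals for each of the 10 sections of 7 tissues. Cyp4a10 reaches ratios of 11.4 to 14.0 in NEJ146 on the summed score and 1.16 in NEJ723, and Cpt1a lies between 0.758 and 1.19 on both panels.

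By the same exact permutation test over 7 tissues, no gene passed 0.05 on the summed score after adjustment over 8011 genes, the lowest adjusted p being 0.182, while 1392 genes had an unadjusted p under 0.05. Cyp4a10, Cyp4a14, Ehhadh and Bdh1 had ratios above 1 in 7 of 7 tissues, with mean log2 ratios of 1.57 ± 1.22, 1.28 ± 0.96, 0.74 ± 0.48 and 0.39 ± 0.20 (SD over 7 tissues) and an exact permutation p of 0.0156 each, adjusted 0.182, which 688 genes, 8.59% of those tested, shared. The ratios of Cyp4a10 in NEJ723, given above, and of Bdh1 in NEJ687, 1.01 (0.919 to 1.11), did not differ from 1 beyond counting error. Acot1 had 0.76 and was higher in 4 of 7 (exact permutation p = 0.125, adjusted 0.415), and Cpt1a had 0.08 and was higher in 6 of 7 (exact permutation p = 0.156, adjusted 0.456). Other cells moved with the score. In NEJ146 section 1 the tumour cell markers went from 2990 to 1249 CPM and the erythroid markers from 12177 to 3196 CPM from the lower to the upper end, and in NEJ687 erythroid markers went from 13129 to 4485 CPM. In NEJ634 the tumour markers went from 5347 to 3244 CPM, bile duct markers from 928 to 306 CPM, stromal markers from 2018 to 1015 CPM and macrophage markers from 245 to 1002 CPM. In NEJ146 section 1 bile duct markers went from 91.9 to 205 CPM and stromal markers from 409 to 703 CPM. The list of general hepatocyte markers went from 16838 to 33718 CPM in NEJ146 section 1 but from 29554 to 26400 CPM in NEJ634. It went from 23285 to 24277 CPM in NEJ687 and from 23812 to 25808 CPM in NEJ723. Median UMIs per spot at the lower and the upper end were 15634 and 21764 in NEJ146 section 1, 24713 and 33796 in NEJ634, 9326.5 and 12789.5 in NEJ687, and 13488 and 19866.5 in NEJ723. The part of these cells and depths in the ratios was not tested. The NEJ146 ratios also rest on a tissue outline that is not settled.

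Without any score, the likeness of adjacent spots in Cyp4a10 and Cyp4a14 differed between tissues. Moran's I, which is 0 for a random scatter of spots and near 1 where neighbours share a level, was 0.582 to 0.624 for Cyp4a10 in the NEJ146 sections, where genes with a similar number of UMIs had medians of 0.0268 to 0.0405. It was 0.554 for Cyp4a14 in NEJ634, beside a median of 0.0196. In NEJ654 and NEJ677 both genes stood above the median but under the 95th percentile of like genes, Cyp4a10 with 0.247 under 0.287 and 0.279 under 0.346. In NEJ638 both stood just over it, Cyp4a10 with 0.206 over 0.190 and Cyp4a14 with 0.213 over 0.2055. With neighbours within 2 steps both fell under the 95th percentile there, at 0.114 under 0.138 and 0.139 under 0.149. With adjacent spots both were also over the 95th percentile in NEJ687, where Cyp4a10 had 0.154 over 0.0437. So they were in NEJ723, where Cyp4a10 had 0.0338 over 0.0306 at 53 UMIs in all. On the map of NEJ634 the high spots formed 1 connected zone along one side of the section. Acot1 formed small patches spread over the section on the map of NEJ654. Its Moran's I was 0.106, 0.123 and 0.134 in NEJ638, NEJ654 and NEJ677, beside medians of 0.0101, 0.00964 and 0.0187. With each spot thinned to 5000 UMIs and shallower spots left out, Moran's I was 0.0492, 0.0626 and 0.0201 for Acot1 in these tissues, the last of them under the 95th percentile of like genes, 0.0223. It was then 0.190 for Cyp4a14 in NEJ634 and 0.343 to 0.391 for Cyp4a10 in NEJ146. In NEJ723 both Cyp4a genes then fell under the 95th percentile of like genes. Cyp4a10 had 0.0198 under 0.0359 and Cyp4a14 0.0225 under 0.0228. Cpt1a lay within the range of like genes, above 32.7% of them in NEJ634, the lowest share, and above 79.5% in NEJ723, the highest, and with spots thinned to 5000 UMIs above 0.723% in NEJ638. Over 8 members and 10 sections, 67 of the 80 values lay above the median of genes of like counts, and 55 did after thinning.

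**Figure D5:**
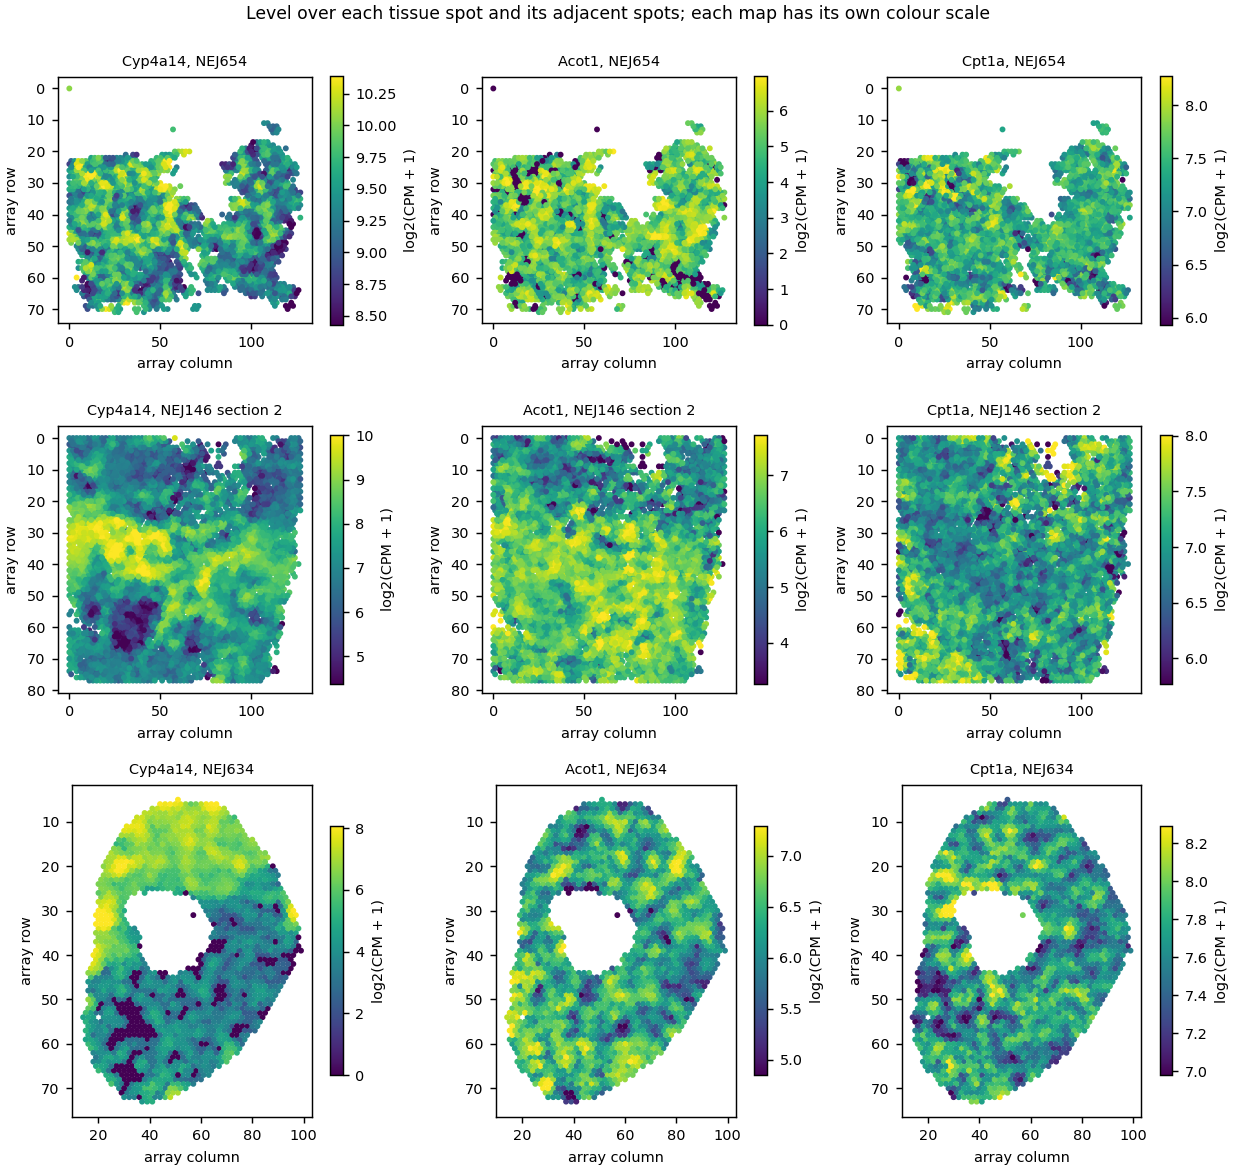
Maps of Cyp4a14, Acot1 and Cpt1a over the tissue spots of NEJ654, NEJ146 section 2 and NEJ634, as log2(CPM + 1) over each spot and its adjacent spots, by array row and column, with a colour scale of its own for each map. Cyp4a14 forms a band in NEJ146 section 2 and a zone along one side of NEJ634, Acot1 forms patches in NEJ654, and Cpt1a shows no large zone.

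Over single spots, Cyp4a10 and Cyp4a14 went together. Their Spearman correlation over spots, with the total UMIs of the spot held fixed, was 0.479 to 0.512 in the NEJ146 sections, 0.522 in NEJ654, 0.412 in NEJ677, 0.359 in NEJ638, 0.296 in NEJ634, 0.175 in NEJ687 and 0.0577 in NEJ723. It was lowest in NEJ723, where the pair had the fewest UMIs, and the part of sparse counts in this order was not tested. Cpt1a and Cyp4a10 had −0.0884 to 0.113 over the 10 sections.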

How the data were processed

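RNA of 10 frozen sections from 7 mouse tissues was captured on Visium slides. The deposited tables hold raw UMI counts, not normalised, for the spots of the array, made per the submitters' processing notes with Space Ranger 1.3 on mm10 for 6 tissues and Cell Ranger 6.0 for the NEJ146 sections, while the methods name Space Ranger and the file headers Cell Ranger. Tissue spots were those marked in the deposited position files, or, for NEJ146, spots with at least 8000 UMIs, with array coordinates taken from the same barcodes in other sections. In sections with position files, spots outside the tissue also held many UMIs, such as 32103302 UMIs over 2584 spots in NEJ654. The UMI limit may therefore keep spots outside the tissue of NEJ146. Tissue spots of low depth were kept. Counts were summed over tissue spots and divided by the total to give CPM, and log2 used a pseudocount of 1. Samples were grouped by tissue as the labels give it. The NEJ146 sections were averaged, although their counts differed by more than sampling noise (chi-square per degree of freedom 15.9 to 99.4, the highest values with section 4). No doublet caller was run, since a spot holds several cells.

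The section spread was the larger of the gene's own SD and that of the median gene (0.08, log2) over the NEJ146 sections. Spots were scored by pericentral and periportal enzymes per 10000 UMIs, averaged with adjacent spots, and the outer of 3 equal groups of spots compared. The sign-flip permutation test was exact over 7 tissues, with Benjamini-Hochberg adjustment over genes outside the scores that averaged 10 CPM or more. Adjacent sections measure the spread within 1 tissue only. Members, lists and marker genes were chosen with earlier results of these data known. Named beside members are the 2 genes of each list with the widest range over tissues, the 3 genes most like each member, and family relatives. Marker genes of the scores are named with them, and Hadhb, Ncor1, Ppara, Aldh3a2, Acly, Igfbp1 and Irs2 were named after their values were seen. Some genes of the lists are not reported here by name. Gene positions are from GENCODE M21 on GRCm38, which holds 30934 of the 31053 identifiers, and promoters from RefSeq on GRCm38.p6. Alternatives covered TMM scaling, mitochondrial genes left out, another tissue rule for NEJ146, the pseudocount, the 10 CPM limit, thresholds and each NEJ146 section left out. Python 3.11.15, numpy 2.4.6, pandas 2.3.3, scipy 1.17.1, matplotlib 3.10.9, R 4.3.3 and edgeR 4.0.16 (TMM only) were used, and scripts were tested on simulated data.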

Additional observations from a re-analysis of the deposited data

Results flagged for a closer look

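Several within-tissue ratios went one way in NEJ146 and the other way in another tissue, a difference that was not tested. The lobule score ratio of Cpt1a was 1.07 in NEJ638 and 1.19 in NEJ654 but 0.758 to 0.862 over the 4 NEJ146 sections. On the summed enzyme score Cpt1a had 1.07 in both NEJ634 and NEJ638, 1.09 in NEJ723, 1.11 in NEJ687 and 1.16 in NEJ654 but 0.852 to 0.952 in NEJ146. Ehhadh had a lobule score ratio of 0.767 in NEJ723 against 2.02 to 2.26 in NEJ146, and Acot1 a summed score ratio of 0.806 in NEJ723 against 1.42 to 1.81 in NEJ146.

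Member transcripts were also counted in spots outside the tissue, which no comparison above used. The 8 members together had 514, 547, 602 and 547 CPM there in NEJ146 sections 1 to 4, against 731, 730, 664 and 637 CPM over tissue. Outside and over tissue they had 1169 and 1432 CPM in NEJ638, 1838 and 2113 CPM in NEJ654 and 1479 and 1730 CPM in NEJ677, and 463 and 471 CPM in NEJ634, 516 and 409 CPM in NEJ687 and 419 and 456 CPM in NEJ723. A count of 0 would have allowed at most 0.0864 to 6.27 CPM there. In NEJ687 the level outside was the higher of the pair, and in the other sections it was the lower.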

How the results depend on the processing

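The counts above had 74 alternatives, and 73 stayed within 1.5 times the reported count. They counted members, pairs of neighbouring tissues, listed genes, values of Moran's I or, in the sign-flip tests, all genes past an adjusted 0.05. That last count was 0 as reported and 0 in each alternative, so its staying the same says little about processing. The alternative outside the limit, a 2-fold in place of a 1.5-fold threshold along the lobule score, left 1 member, Acot1, in place of 4. Cyp4a10 and Cyp4a14 missed it in NEJ677 only. Leaving out each NEJ146 section in turn gave 5 ordered members each time and 27 to 34 neighbouring pairs beyond 2 SD, beside 32 of 48 with all sections. The differences in level of single members were compared with the gene's own log2 SD over the NEJ146 sections, which can be smaller than the section spread. By this measure 15 moved by more, 8 under TMM scaling and 7 with a pseudocount of 5, 81 did not, and none reversed. With TMM scaling 4 members and 62 of 93 listed genes had NEJ638, NEJ654 and NEJ677 on one side or above, in place of 5 and 49. Counts within this moved more, with listed genes below going from 11 to 6, members below from 1 to 0, and genes above from 3 to 5 for ketone bodies and lipid synthesis and from 2 to 4 for fasting and insulin. With NEJ146 left out altogether 5 members were ordered and 50 listed genes stood above. This alternative, and the lists under TMM scaling or without mitochondrial genes, which gave 49, were chosen after seeing the data. No paired analysis was possible because the tissues share only replicate number 1, which pairs no samples. The tissue outline of NEJ146 is not settled, since calling spots by their mitochondrial share gave the same call for 72.6 to 86.1% of its spots. Pdk4 and Fgf21 had too few counts for most comparisons.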
